A study of Mus musculus with 12 samples.

Results

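The small leucine-rich proteoglycans (SLRPs) are secreted matrix proteins, and 8 of their genes were followed through the series: *Dcn* (decorin), *Bgn* (biglycan), *Aspn* (asporin), *Lum* (lumican), *Fmod* (fibromodulin), *Prelp* (prolargin), *Omd* (osteomodulin) and *Ogn* (osteoglycin). The 8 were taken by symbol from the 40760 genes of the count table, and 8 of the 8 were among the 17418 genes that passed the filter on low counts and were tested. After bleomycin (bleo), 6 of the 8 (*Dcn*, *Lum*, *Ogn*, *Prelp*, *Aspn* and *Omd*) fell by more than 2-fold in libraries of both genotypes, as did 23.3% of all genes tested in *WT* and 19.3% in *Pear1*-/- (adjusted p under 0.05). The fall of *Lum* in *WT* was less than 2-fold without 1 *WT* vehicle library that stood apart, which left 5 of the 8 there. *Fmod* rose in both, 5.03-fold in *WT* and 20.1-fold in the libraries labelled *Pear1*-/-. *Bgn* had a log2 fold change of -0.32 in *WT*, a fall that did not pass the test without the filter on low counts, and of 0.49 in the *Pear1*-/- libraries.

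The libraries came from Pdgfra+ (Cd140a+) cells, a sort that takes mesenchymal cells, from the lungs of male mice. There were 4 groups of 3 libraries each, made up of vehicle and bleo mice of the *WT* and *Pear1*-/- genotypes. The mice were on a C57BL/6 background and 8 to 12 weeks old where the study's methods state no exception. *Pear1*-/- mice carry a knockout-first allele in every cell, a cassette in an intron of *Pear1* that traps the transcript. Bleo, which injures the lung and is followed by scarring, was given as an aerosol into the trachea. The dose and day behind these libraries, the composition of the vehicle and the number of mice in a library are not given in the sources used here, so the p-values measure the spread between libraries, part of which may be technical. Between 6702948 and 10447101 reads per library were counted on genes.

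SLRPs share a core of leucine-rich repeats and many carry sugar chains, chondroitin or dermatan sulphate on decorin and biglycan, keratan sulphate on lumican and fibromodulin. Several bind collagen fibrils and set how thick and how regular the fibrils become, and decorin, biglycan and fibromodulin also bind transforming growth factor beta. In the lung they are made mainly by fibroblasts, of which those around vessels and airways (adventitial) and those of the alveolar wall express partly different sets of matrix genes.

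The genotype labels were checked first. *Pear1* had 546.5 ± 28.8 normalized counts in *WT* vehicle and 519.7 ± 24.0 in *Pear1*-/- vehicle (mean ± SD, n = 3, as for all values below), with a log2 fold change of -0.08 (adjusted p = 0.49). After bleo it had 253.7 ± 14.0 in *WT* and 357.2 ± 14.2 in *Pear1*-/-, where it was higher (0.48, adjusted p = 7.54e-05). A single count per gene does not separate reads before the cassette from reads after it, so the counts of *Pear1* do not verify the genotype, and "*Pear1*-/-" below means the libraries labelled *Pear1*-/-. *WT* vehicle replicate 2 stood apart: the chi-square per degree of freedom of its counts was 21.2 and 21.8 against the other *WT* vehicle libraries and between 1.73 and 2.67 against the *Pear1*-/- vehicle libraries. Among themselves the *Pear1*-/- vehicle libraries had 1.436 (replicates 1 and 2), 4.305 (1 and 3) and 4.821 (2 and 3). By this measure *WT* vehicle replicate 2 lay within the spread of *Pear1*-/- vehicle, and its label was kept. For the SLRP genes listed first, values that rest on it are also given without it where a call changes or the value moves markedly. Fold changes of other single genes are given with all libraries only, also where they rest on that library. Within each bleo group the chi-square per degree of freedom was between 1.35 and 1.49, little above the 1 of counting noise, and it was 1.58 between *WT* vehicle replicates 1 and 3. Such libraries could be technical replicates, so the p-values below may not measure differences between mice.

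The sorted cells were checked against marker genes. *Pdgfra*, the gene of the sorted surface protein, fell from 4565 ± 325 normalized counts in *WT* vehicle to 1360 ± 29.9 in *WT* bleo, and had 4165 ± 39.1 and 2392 ± 18.8 in *Pear1*-/- vehicle and bleo. The summed level of 25 leukocyte markers, with *Ptprc* (CD45) as the first, was between 37300 and 57820 normalized counts in *WT* vehicle, 56730 and 62390 in *Pear1*-/- vehicle, 215100 and 216500 in *WT* bleo, and 93360 and 95630 in *Pear1*-/- bleo. *Ptprc* itself had 3303 ± 479, 3818 ± 263, 7616 ± 97.8 and 3365 ± 109 normalized counts in these groups. With bleo 18 of the 25 rose and 5 fell in *WT*, 14 rose and 6 fell in *Pear1*-/-, and 20 were lower in *Pear1*-/- bleo than in *WT* bleo, with none at 0 throughout a group. Of all genes tested, 31.4% rose and 36.5% fell in *WT* and 29.1% rose and 33.1% fell in *Pear1*-/- with bleo at an adjusted p under 0.05, and 22.1% were higher and 24.0% lower in *Pear1*-/- bleo than in *WT* bleo. In these bulk libraries, fewer cells of a type and less RNA per cell cannot be told apart, and the part of the leukocyte RNA in the results below was not tested.

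7 of the 8 genes lie in clusters with other SLRP genes (positions in GRCm38 from the GENCODE M21 annotation). On chromosome 10 *Dcn* (chr10:97479609-97518143) is followed by *Lum* (chr10:97565128-97572703) at 47.0 kb, and then by *Kera* and *Epyc*. On chromosome 13 *Ecm2* is followed by *Aspn* (chr13:49544443-49567565), *Omd* (chr13:49582462-49592822) and *Ogn* (chr13:49608046-49624501), with gaps of 11.7, 14.9 and 15.2 kb. *Prelp* (chr1:133910304-133921414, reverse strand) lies 2.30 kb from *Optc* and 116 kb from *Fmod* (chr1:134037254-134048277), and *Bgn* (chrX:73483602-73495933) stands alone. No other protein-coding gene lies wholly inside any of these gaps. *Cenpp* lies on the opposite strand across *Aspn*, *Omd* and *Ogn* and shares exonic sequence with *Aspn*, but had 299 counts over the 12 libraries together.

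**Figure D1:**
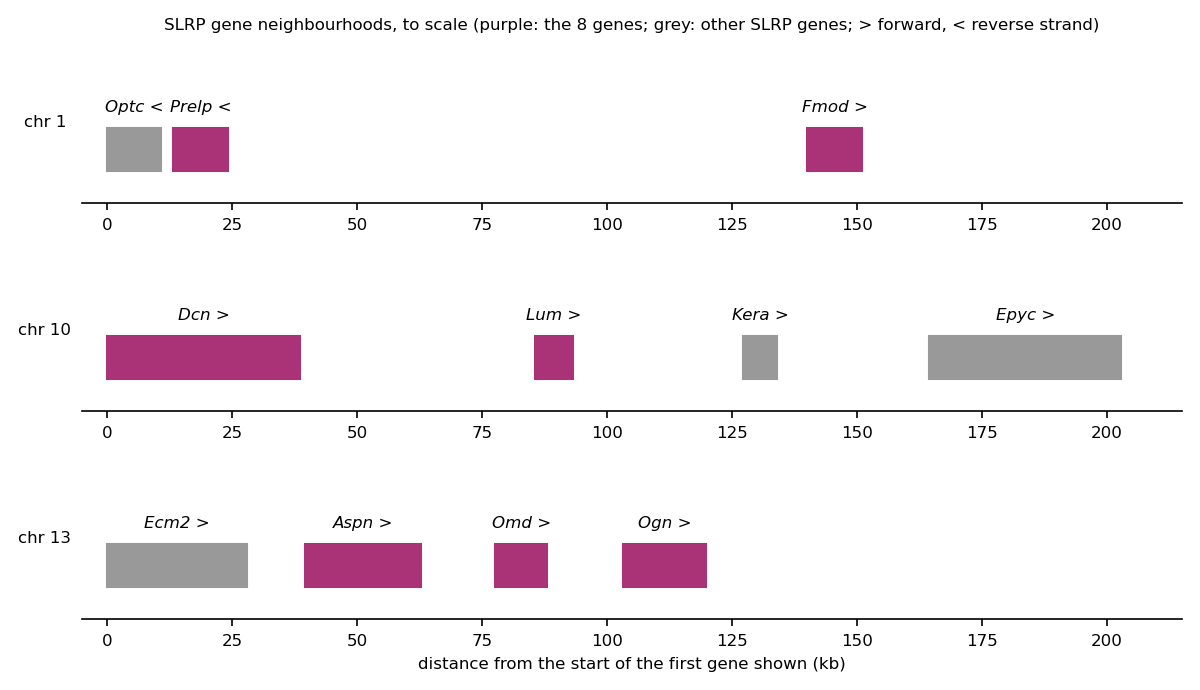
SLRP genes on chromosomes 1, 10 and 13, drawn to scale against the distance from the start of the first gene shown (kb). Purple boxes are genes of the 8 and grey boxes other SLRP genes; *Prelp* and *Fmod*, which moved in opposite directions after bleo, are separated by 116 kb.

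The promoter sequences of *Fmod*, *Prelp*, *Bgn* and *Ogn* are shown because they differ in response: *Fmod* rose and its chromosomal neighbour *Prelp* fell after bleo, *Bgn* moved in opposite directions in the genotypes, and *Ogn* fell in both. Each is the 250 bases before the gene's RefSeq start (GRCm38.p6), 5′ to 3′ on the gene's strand. Capitals mark matches, on either strand, to any of 6 motifs. The box of TATA-binding protein was searched as TATAAA and the binding site of Sp1 as GGGCGG. The palindromic site of SMAD proteins was searched as GTCTAGAC and the short core of such sites as GTCTG. The sites of AP-1 and of TEAD factors were searched as TGANTCA and as GGAATG.
Fmod, chr1:134037004-134037253, forward: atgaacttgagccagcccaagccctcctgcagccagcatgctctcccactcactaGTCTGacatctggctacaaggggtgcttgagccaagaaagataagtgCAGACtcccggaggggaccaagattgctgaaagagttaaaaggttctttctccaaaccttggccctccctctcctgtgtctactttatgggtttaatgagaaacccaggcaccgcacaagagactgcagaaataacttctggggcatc
Prelp, chr1:133921402-133921651, reverse: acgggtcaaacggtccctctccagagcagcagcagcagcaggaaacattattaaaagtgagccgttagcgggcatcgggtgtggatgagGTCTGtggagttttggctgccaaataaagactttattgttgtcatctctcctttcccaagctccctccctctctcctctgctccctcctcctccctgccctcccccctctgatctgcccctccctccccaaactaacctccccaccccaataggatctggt
Bgn, chrX:73483351-73483600, forward: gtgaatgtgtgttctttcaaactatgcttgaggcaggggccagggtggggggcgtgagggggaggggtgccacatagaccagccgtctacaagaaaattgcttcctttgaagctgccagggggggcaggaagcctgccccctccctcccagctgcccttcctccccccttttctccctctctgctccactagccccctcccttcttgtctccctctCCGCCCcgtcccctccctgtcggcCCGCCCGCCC
Ogn, chr13:49607765-49608014, forward: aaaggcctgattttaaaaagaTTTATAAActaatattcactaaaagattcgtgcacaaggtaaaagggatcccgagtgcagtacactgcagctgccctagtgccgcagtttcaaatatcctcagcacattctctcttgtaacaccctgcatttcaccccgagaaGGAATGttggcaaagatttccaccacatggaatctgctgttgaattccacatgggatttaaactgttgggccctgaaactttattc
The *Fmod* window held GTCTG at 2 places and the *Prelp* window at 1, a sequence present in 42.2% of 32851 mouse promoter windows of this length. The *Bgn* window, at 64.4% GC against a median of 52.4% over all windows, held 3 GGGCGG matches within its last 34 bases, of which 2 overlap, and 32.7% of windows held at least 1. The *Ogn* window, at 42.0% GC, held 2 overlapping TATAAA matches more than 200 bases before the start and 1 GGAATG, found in 12.4% and 12.6% of windows. The windows of *Aspn* (30.0% GC, 2 TATAAA matches) and *Omd* (38.4% GC, no match) were read in the same way. GTCTAGAC (0.167% of windows) and TGANTCA (6.75%) were in none of the 6 windows. A match is a description of the letters only.

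Levels were compared between genes per length, as TPM (counts per exonic length, scaled to the same total in each library). In *WT* vehicle the mean TPM was 1102 ± 321 for *Dcn*, 883.5 ± 122 for *Ogn*, 822.4 ± 119 for *Bgn*, 595.1 ± 133 for *Prelp*, 329.8 ± 83.1 for *Lum* and 106 ± 24.8 for *Aspn*. *Fmod* (20.3 ± 6.55) and *Omd* (20.0 ± 3.81) were lowest. *Dcn*, *Ogn* and *Bgn* lay within an SD of one another in that group, as did *Fmod* and *Omd*. In *WT* bleo the order became *Bgn* (751.8 ± 9.06), *Dcn* (347 ± 6.16), *Ogn* (268.5 ± 12.9), *Prelp* (189.6 ± 1.53), *Lum* (156 ± 2.90), *Fmod* (115 ± 1.95), *Aspn* (46.2 ± 1.83) and *Omd* (4.62 ± 0.0476), each apart from the next by more than either SD. In *Pear1*-/- bleo *Fmod* (368 ± 8.71) came directly after *Bgn* (1184 ± 17.03) and above *Dcn* (351 ± 0.992) and *Ogn* (345.8 ± 9.68), the last 2 of which lay within an SD of each other.

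The make-up of the family changed with bleo in both genotypes. *Bgn* held 21.3 ± 3.49% of the summed TPM of the 8 genes in *WT* vehicle and 40.0 ± 0.393% in *WT* bleo. The *Pear1*-/- shares were 16.8 ± 1.43% in vehicle and 42.4 ± 0.311% in bleo. The share of *Dcn* was 28.3 ± 7.71% and 18.5 ± 0.214% in *WT* vehicle and bleo, and 37.2 ± 0.683% and 12.6 ± 0.103% in *Pear1*-/-. *Fmod* held 0.526 ± 0.174% in *WT* vehicle and 6.10 ± 0.185% in *WT* bleo. Its *Pear1*-/- shares were 0.367 ± 0.0700% in vehicle and 13.2 ± 0.172% in bleo. The vehicle and bleo groups did not overlap in the share of any of these 3 genes. The summed TPM of the 8 genes was between 3756 and 3957 in *WT* vehicle, 3589 and 4190 in *Pear1*-/- vehicle, 1849 and 1901 in *WT* bleo, and 2760 and 2817 in *Pear1*-/- bleo.

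**Figure D2:**
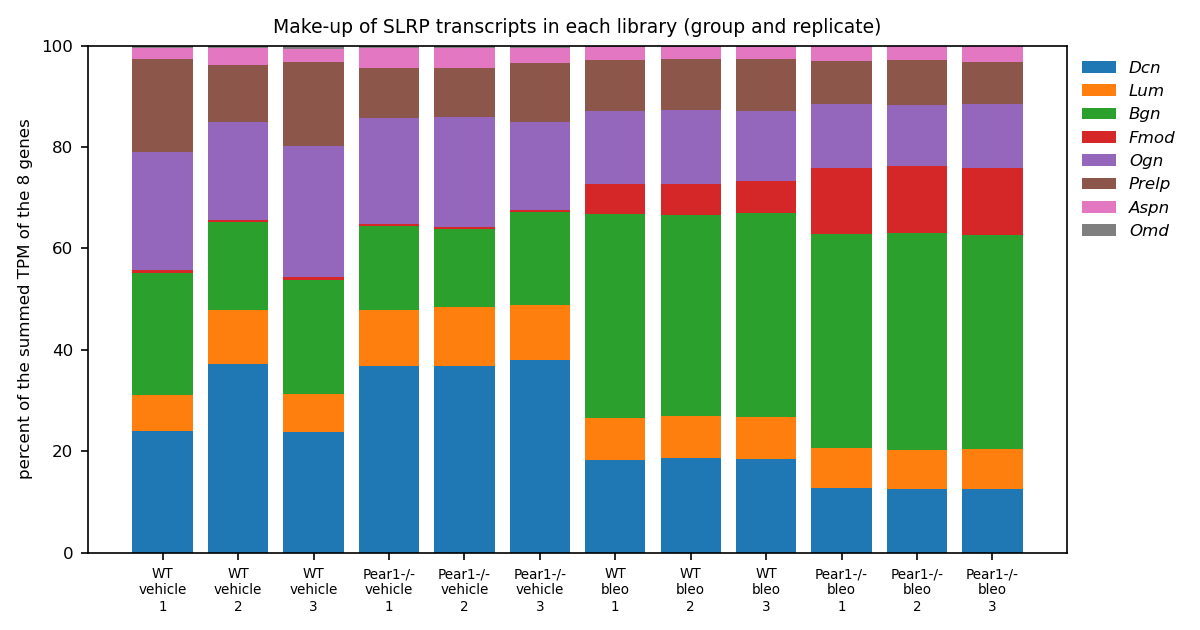
Share of each SLRP gene in the summed TPM of the 8 genes (percent, stacked from 0), 1 bar per library with its group and replicate number below. *Bgn* (green) holds 39.6% or more of the total in each bleo library and *Fmod* (red) between 12.98% and 13.3% in the *Pear1*-/- bleo libraries; *WT* vehicle replicate 2 has the *Dcn* share (37.2%) of the *Pear1*-/- vehicle libraries.

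The response of *WT* cells to bleo was read as *WT* bleo against *WT* vehicle. Counted as called when the fold change was over 2 and the adjusted p under 0.05, 1 of the 8 genes was higher and 6 were lower, where 10.5% of all genes tested were called higher and 23.3% lower. The median log2 fold change of the 8 was -1.64, beside -0.07 over all genes tested. For *Pear1*-/- bleo against *Pear1*-/- vehicle, again 1 was called higher and 6 lower, with 8.37% and 19.3% of all genes called, and medians of -1.24 and -0.05. The libraries of each pair of groups did not overlap for any of the 8 genes in either comparison, which was also so for 68.7% of all genes tested in *WT* and 70.9% in *Pear1*-/-.

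**Figure D3:**
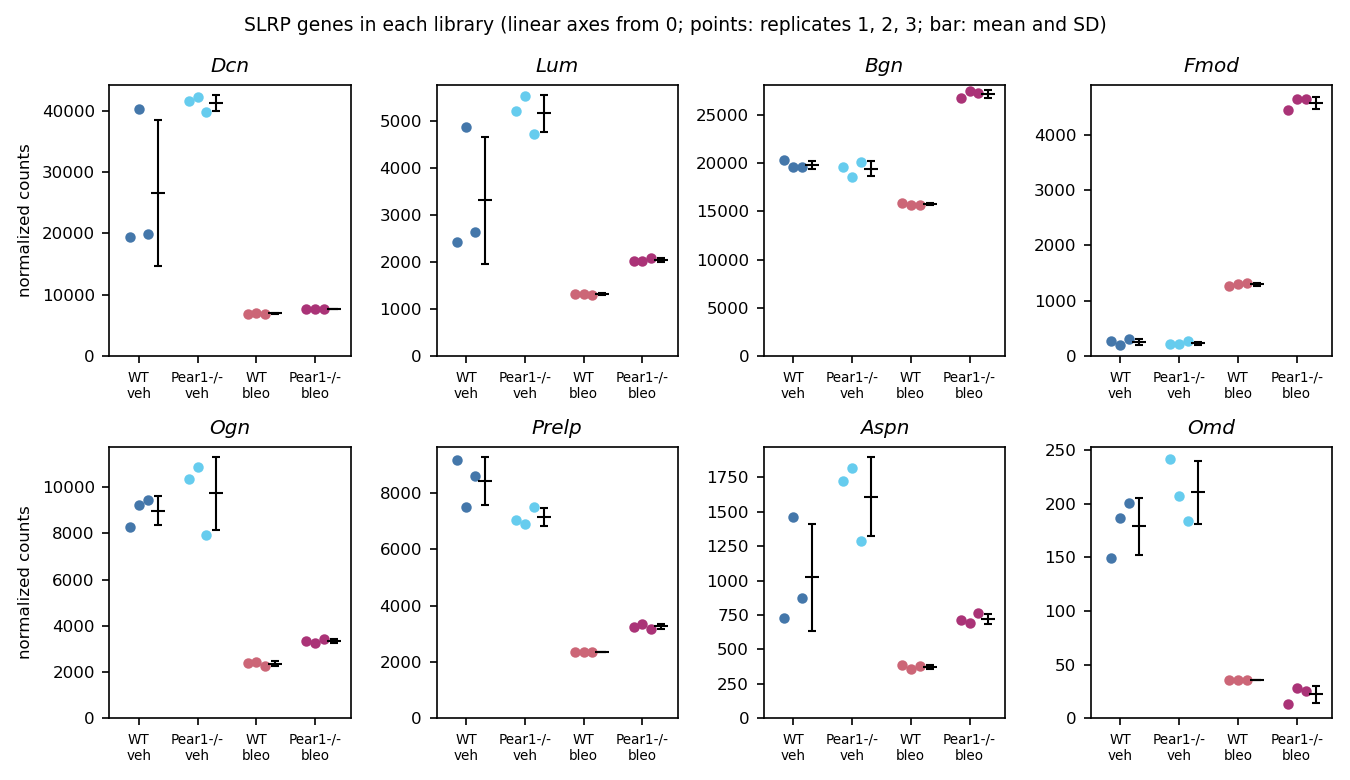
Normalized counts of each SLRP gene in each of the 12 libraries (linear axes from 0), with the mean and SD of each group as a black bar. *Fmod* has between 4457 and 4641 in *Pear1*-/- bleo and at most 304.5 in any vehicle library, and in *WT* vehicle the points of replicate 2 lie within the range of *Pear1*-/- vehicle for *Dcn*, *Lum* and *Aspn*.

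Of the decorin and biglycan group, *Dcn*, which binds collagen fibrils and growth factors, had 19460, 40280 and 19830 normalized counts in *WT* vehicle and 6931, 7087 and 6857 in *WT* bleo. The *Pear1*-/- libraries had 41640, 42200 and 39780 in vehicle and 7690, 7710 and 7728 in bleo. All 6 bleo libraries were below all 6 vehicle libraries, and *WT* vehicle replicate 2 was at about the level of the *Pear1*-/- vehicle libraries. The log2 fold change with bleo was -1.92 (standard error 0.255, adjusted p = 0.000156) in *WT*, -1.49 without *WT* vehicle replicate 2, and -2.41 (standard error 0.259, adjusted p = 4.79e-05) in *Pear1*-/-. Between the bleo groups *Dcn* was 0.14 higher in *Pear1*-/- (95% confidence interval -0.43 to 0.70, adjusted p = 0.696), although the groups did not overlap. That fit takes its spread from all 12 libraries, and without *WT* vehicle replicate 2 the same 0.14 passed the test (adjusted p = 0.00328). With only the 2 bleo groups in the fit it was 0.148 and passed (adjusted p = 6.09e-09).

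*Bgn*, a collagen-binding proteoglycan that can also be sensed by Toll-like receptors when released from matrix, had 20290, 19570 and 19610 normalized counts in *WT* vehicle and 15880, 15670 and 15700 in *WT* bleo. The libraries of *Pear1*-/- had 19570, 18580 and 20060 in vehicle and 26750, 27490 and 27230 in bleo. The vehicle groups overlapped, and with bleo the *WT* libraries lay below and the *Pear1*-/- libraries above every vehicle library. It fell in *WT* (log2 fold change -0.32, standard error 0.0520, adjusted p = 2.39e-05) and rose in *Pear1*-/- (0.49, adjusted p = 1.64e-07). Without the filter on low counts the *WT* value was -0.186 and missed the threshold (adjusted p = 0.0596). The difference between these responses (the interaction term of the model) was 0.81 (standard error 0.0735, adjusted p = 9.53e-08). Between the bleo groups *Bgn* was 1.71-fold higher in *Pear1*-/- (adjusted p = 5.85e-10). None of these 4 values reached a fold of 2, so *Bgn* was not among the genes called.

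*Aspn*, a relative of decorin that carries aspartate repeats and no sugar chain of the usual kind, had 730.1, 1466 and 876.9 normalized counts in *WT* vehicle and 385.7, 359.0 and 376.6 in *WT* bleo. Its counts in *Pear1*-/- were 1725, 1821 and 1287 in vehicle and 711.2, 695.4 and 762.5 in bleo. *WT* vehicle replicate 2 was the highest of its group and lay among the *Pear1*-/- vehicle libraries, and the lowest *WT* vehicle library was below the highest *Pear1*-/- bleo library. It fell by 1.44 (log2) in *WT* (standard error 0.243, adjusted p = 0.000544), by 1.10 without *WT* vehicle replicate 2, and by 1.15 in *Pear1*-/- (adjusted p = 0.002). It was 1.92-fold higher in *Pear1*-/- bleo than in *WT* bleo (adjusted p = 0.011), which missed the threshold without the filter on low counts (adjusted p = 0.0521).

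Of the fibromodulin and lumican group, *Fmod*, which binds type I collagen and takes part in its cross-linking, had 278.9, 199.9 and 304.5 normalized counts in *WT* vehicle and 211.2, 209.7 and 265.2 in *Pear1*-/- vehicle. After bleo it had 1269, 1308 and 1325 in *WT* and 4457, 4640 and 4641 in *Pear1*-/-. The vehicle groups overlapped, and each *Pear1*-/- bleo library had over 3 times the counts of any *WT* bleo library. *Fmod* rose by 2.33 (log2) (standard error 0.121, adjusted p = 1.44e-11) with bleo in *WT* and by 4.33 (standard error 0.128, adjusted p = 1.12e-14) in *Pear1*-/-. The bleo groups differed by 1.80 (standard error 0.112, adjusted p = 6.26e-10), and the interaction was 2.0 (standard error 0.167, adjusted p = 7.74e-08).

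*Lum*, which regulates fibril spacing in cornea and other tissues, had 2433, 4869 and 2640 normalized counts in *WT* vehicle and 1328, 1321 and 1293 in *WT* bleo. Among the *Pear1*-/- libraries it had 5218, 5527 and 4730 in vehicle and 2026, 2018 and 2089 in bleo. The groups stood in the same order as for its neighbour *Dcn*, with *WT* vehicle replicate 2 at the level of *Pear1*-/- vehicle. It fell by 1.32 (log2) in *WT* (standard error 0.226, adjusted p = 0.000604) and by 1.33 in *Pear1*-/- (adjusted p = 0.000658). Without *WT* vehicle replicate 2 the *WT* fall was 0.941, less than 2-fold, so that 5 of the 8 genes were then called lower in *WT*, with 24.6% of all genes. The bleo groups did not overlap and *Lum* was 0.63 higher in *Pear1*-/- (adjusted p = 0.0466). This passed in 9 of 19 other settings, and the adjusted p was between 0.0599 and 0.103 without any single *Pear1*-/- vehicle, *WT* bleo or *Pear1*-/- bleo library and 0.181 without the filter on low counts.

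*Prelp*, a heparin-binding relative that anchors basement membranes to connective tissue, had 9190, 7503 and 8624 normalized counts in *WT* vehicle and 2361, 2352 and 2348 in *WT* bleo. For *Pear1*-/- the counts were 7038, 6912 and 7520 in vehicle and 3245, 3355 and 3185 in bleo. It fell by 1.83 (log2) in *WT* (standard error 0.0742, adjusted p = 7.96e-14) and by 1.13 in *Pear1*-/- (standard error 0.0728, adjusted p = 1.32e-10). The interaction of 0.70 passed the test (adjusted p = 2.7e-05), and *Prelp* was 1.37-fold higher in *Pear1*-/- bleo than in *WT* bleo (adjusted p = 3.67e-05).

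*Omd*, a keratan sulphate proteoglycan best known from bone, had 149.2, 186.7 and 200.3 normalized counts in *WT* vehicle and 35.8, 35.7 and 35.4 in *WT* bleo. The counts of the *Pear1*-/- libraries were 241.5, 206.9 and 183.3 in vehicle and 13.3, 28.4 and 25.7 in bleo. It fell by 2.31 (log2) in *WT* (adjusted p = 3.14e-09) and by 3.22 in *Pear1*-/- (adjusted p = 6.51e-11), and the bleo groups did not overlap. Unlike the other members that differed between the bleo groups, *Omd* was lower in *Pear1*-/- (-0.68, standard error 0.249, adjusted p = 0.0323). This difference did not pass without *Pear1*-/- bleo replicate 1, its lowest library (-0.41, adjusted p = 0.174), or without any 1 of the *WT* bleo libraries (adjusted p between 0.067 and 0.0716). The interaction of -0.91 (adjusted p = 0.0201) also missed the threshold without *Pear1*-/- bleo replicate 1 (-0.64, adjusted p = 0.0767) and without *Pear1*-/- vehicle replicate 1 (-0.80, adjusted p = 0.0512).

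*Ogn*, found in bone, vessel wall and other connective tissue, had 8267, 9234 and 9454 normalized counts in *WT* vehicle and 2414, 2441 and 2244 in *WT* bleo. With the *Pear1*-/- label it had 10380, 10880 and 7941 in vehicle and 3345, 3241 and 3430 in bleo. It fell by 1.91 (log2) in *WT* (standard error 0.0941, adjusted p = 2.38e-12) and by 1.54 in *Pear1*-/- (adjusted p = 7.66e-11). In *Pear1*-/- bleo it was 1.40-fold higher than in *WT* bleo (adjusted p = 0.000269). The interaction was 0.37 (adjusted p = 0.029), but the adjusted p was 0.108 without *WT* vehicle replicate 2, and between 0.0605 and 0.0788 without *WT* vehicle replicate 3, *WT* bleo replicate 3, *Pear1*-/- bleo replicate 1 or *Pear1*-/- bleo replicate 3.

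Between the bleo groups, 6 of the 8 genes were higher in *Pear1*-/- than in *WT* (*Fmod*, *Aspn*, *Bgn*, *Lum*, *Ogn* and *Prelp*) and *Omd* was lower, at an adjusted p under 0.05, where 22.1% of all genes tested were higher and 24.0% lower. With the fold of 2 as well, 1 was called higher (*Fmod*) and 0 lower, where 6.22% of all genes were called higher and 8.8% lower. The median log2 fold change of the 8 was 0.55, beside -0.01 over all genes. The interaction was called for 1 gene, *Fmod*, with 8.53% of all genes called higher and 6.98% lower. The interactions of *Dcn* (-0.50, adjusted p = 0.305), *Aspn* (0.29, adjusted p = 0.532) and *Lum* (-0.01, adjusted p = 1) did not pass, but without *WT* vehicle replicate 2 those of *Dcn* (-0.925, adjusted p = 5.92e-17) and *Lum* (-0.39, adjusted p = 5.1e-05) did. The comparisons share groups: the bleo libraries enter both the bleo response and the genotype comparison, and the interaction uses all 4 groups.

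**Figure D4:**
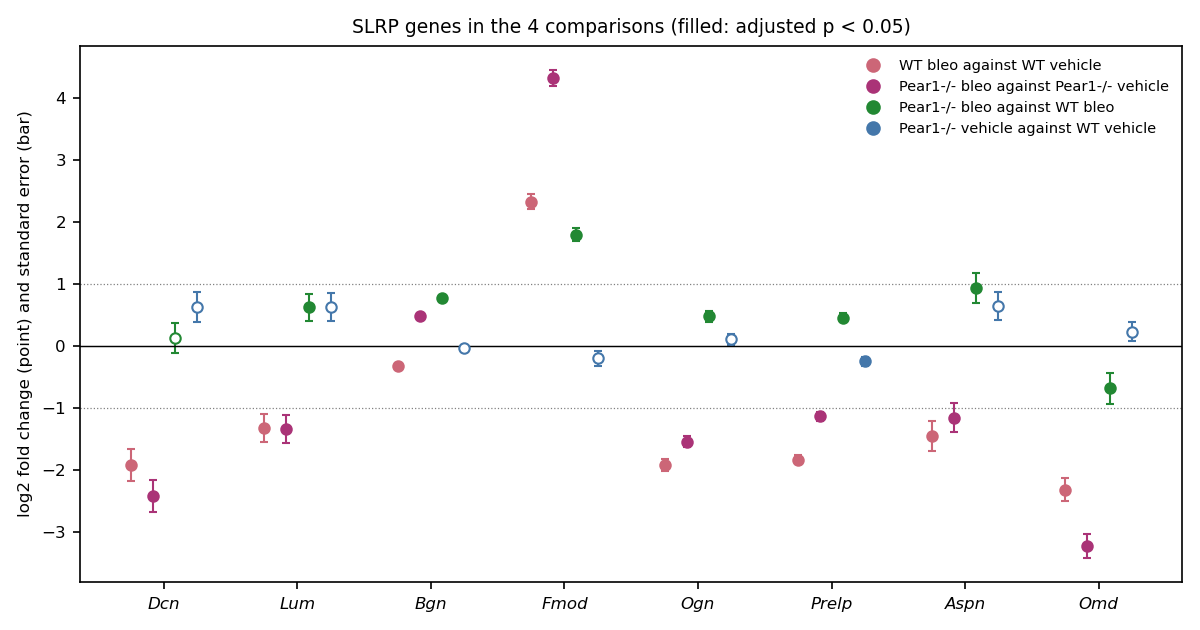
Log2 fold change (points) and standard error (bars) of each SLRP gene in the 4 comparisons of 2 groups, from edgeR on all 12 libraries; filled points have an adjusted p under 0.05, open points do not, and dotted lines mark a fold of 2. *Fmod* lies above the upper line in both bleo responses, 6 genes lie below the lower line in both, and *Bgn* lies on opposite sides of 0.

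Without injury, *Pear1*-/- vehicle against *WT* vehicle gave 0 of the 8 genes called, by edgeR, DESeq2 and limma alike, where 0.0689% of all genes were called higher and 3.25% lower. Before adjustment, 4 of the 8 (*Dcn*, *Lum*, *Aspn* and *Prelp*) passed 0.05 in the edgeR model, as did 31.4% of all genes tested. *Dcn*, *Lum* and *Aspn* had log2 fold changes of 0.63, 0.63 and 0.65 (adjusted p = 0.125, 0.0948 and 0.0993 in edgeR). All 3 turned on *WT* vehicle replicate 2: without it the values were 1.06, 1.02 and 0.996 (adjusted p = 7.59e-23, 2.58e-18 and 4.15e-05), and *Dcn* and *Lum* were called higher, as were 2.78% of all genes in that setting. *Fmod* then had -0.37 (adjusted p = 0.00135) in place of -0.20 (adjusted p = 0.286). *Prelp* was 0.24 lower in *Pear1*-/- vehicle with all libraries (adjusted p = 0.0469), and it was -0.325 without *WT* vehicle replicate 2 (adjusted p = 7.71e-07). The difference of *Prelp* missed the threshold in 16 of 19 other settings, among them edgeR without robust estimation (adjusted p = 0.0591). The differences of *Ogn* (0.11, 95% confidence interval -0.08 to 0.30), *Omd* (0.23, -0.09 to 0.55) and *Bgn* (-0.04, -0.15 to 0.07) did not pass with or without that library.

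Marker genes of fibroblast types were read in the same libraries. The summed level of 6 adventitial fibroblast markers, with *Pi16* as the first, was 9194, 13460 and 9105 normalized counts in *WT* vehicle, between 13330 and 14060 in *Pear1*-/- vehicle, 3596 and 3713 in *WT* bleo, and 2490 and 2580 in *Pear1*-/- bleo. *WT* vehicle replicate 2 thus had the *Pear1*-/- vehicle level of these markers, as it had of *Dcn* and *Lum*. Of the 6, 5 fell in *WT* and 6 in *Pear1*-/- with bleo, *Pi16* by 1.85 and 3.12 on the log2 scale, where 36.5% and 33.1% of all genes tested fell. The 10 alveolar fibroblast markers, which include *Pdgfra*, summed to between 39030 and 53700 in *WT* vehicle, 37060 and 40460 in *Pear1*-/- vehicle, 8512 and 8747 in *WT* bleo, and 10890 and 11130 in *Pear1*-/- bleo. In these 10, 10 fell in *WT* and 7 in *Pear1*-/-, beside the same 36.5% and 33.1% of all genes. The adventitial sum was lower in *Pear1*-/- bleo than in *WT* bleo. The alveolar sum was 53700, 39030 and 50440 in *WT* vehicle, so that replicate 2 again lay in the range of *Pear1*-/- vehicle, and the other libraries of *WT* vehicle lay above it.

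Activated fibroblast markers were read in the same way. The 7 genes, with *Cthrc1* as the first, summed to between 4234 and 4338 normalized counts in *WT* vehicle, 3920 and 4400 in *Pear1*-/- vehicle, 7220 and 7509 in *WT* bleo, and 19650 and 19690 in *Pear1*-/- bleo. *Cthrc1* rose by 4.03 (log2) in *WT* (adjusted p = 1.16e-09) and by 6.37 in *Pear1*-/- (adjusted p = 8.06e-12). With bleo, 4 of the 7 rose and 1 fell in *WT* (all genes, 31.4% and 36.5%), and 6 rose and 0 fell in *Pear1*-/- (all genes, 29.1% and 33.1%). The gene that fell in *WT* was *Acta2*, for smooth muscle actin. It fell by 0.168 there (adjusted p = 0.0269) and rose by 1.36 in *Pear1*-/- (adjusted p = 1.5e-12). The part of any of these cell types in the changes of the 8 genes was not tested.

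**Figure D5:**
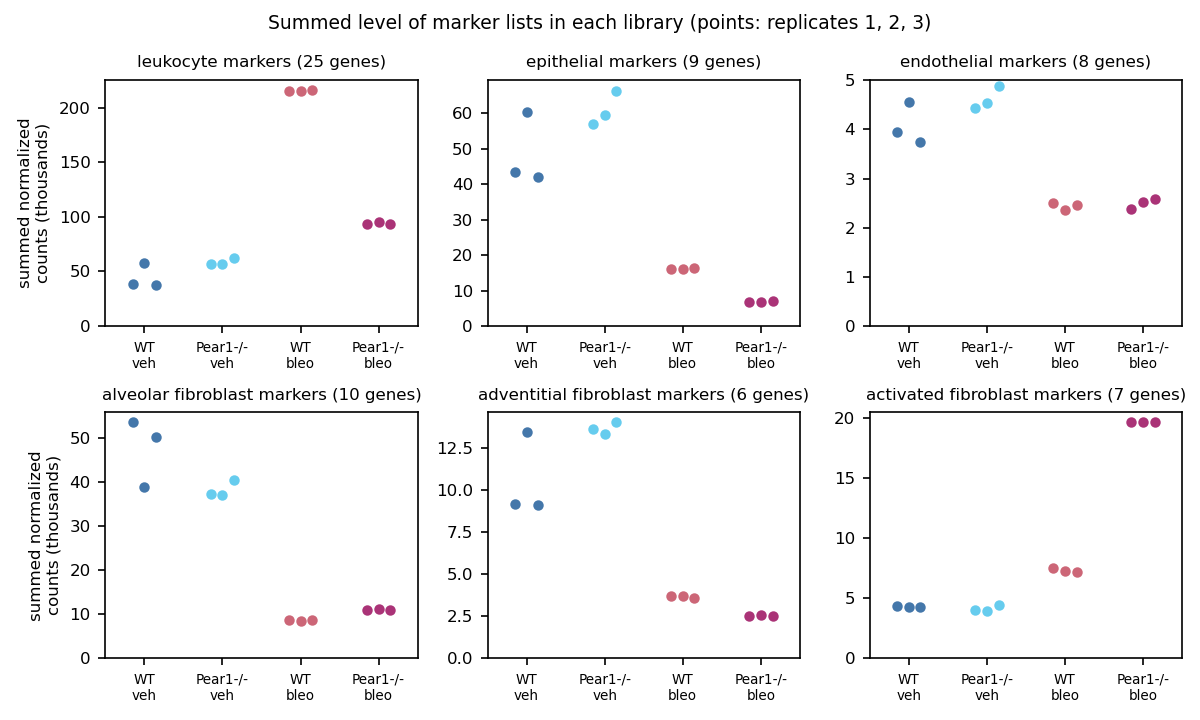
Summed normalized counts (in units of 1000 on the axes) of 6 marker lists in each library, 3 points per group. The activated fibroblast sum is highest in *Pear1*-/- bleo (19650 to 19690), the leukocyte sum in *WT* bleo (215100 to 216500), and *WT* vehicle replicate 2 lies with *Pear1*-/- vehicle for the leukocyte, epithelial, endothelial, alveolar and adventitial sums.

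Markers of other cell types were also detected. The 9 epithelial markers, with *Epcam* as the first and surfactant genes among them, summed to between 41980 and 60410 normalized counts in *WT* vehicle, 57100 and 66430 in *Pear1*-/- vehicle, 15980 and 16250 in *WT* bleo, and 6814 and 6968 in *Pear1*-/- bleo, and 7 of the 9 fell in each genotype (all genes, 36.5% in *WT* and 33.1% in *Pear1*-/-). The 8 endothelial markers (*Pecam1* first) summed to between 3734 and 4879 in the vehicle libraries and between 2357 and 2575 in the bleo libraries, and 7 of the 8 fell in each genotype, against the same shares of all genes. *WT* vehicle replicate 2 (60410 epithelial and 4560 endothelial) lay in the range of *Pear1*-/- vehicle (57100 to 66430 and 4444 to 4879), and replicates 1 and 3 lay below it. The 6 mesothelial markers (*Msln* first) summed to between 483 and 720.4 in *WT* vehicle, 448.1 and 479.1 in *Pear1*-/- vehicle, 202.9 and 214.9 in *WT* bleo, and 376.5 and 410.8 in *Pear1*-/- bleo. For the 8 pericyte and smooth muscle markers (*Cspg4* first) the ranges in these groups were 3643 to 3869, 3890 to 4115, 1908 to 1935, and 4537 to 4771. No marker of these lists was at 0 in all libraries of a group, and their part was not tested.

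Of 10 other SLRP genes in the table, 7 passed the filter on low counts. *Ecm2*, next to *Aspn*, fell from 1018 ± 241 to 136.5 ± 11.2 normalized counts in *WT* (log2 fold change -2.89, adjusted p = 6.27e-11) and from 1288 ± 105 to 198.6 ± 18.7 in *Pear1*-/- (-2.69, adjusted p = 1.33e-10). *Podn* (podocan) fell by 1.08 (log2) in *WT* (adjusted p = 3.74e-10) and by 0.46 in *Pear1*-/- (adjusted p = 3.64e-05). *Tsku* (tsukushi), which can bind transforming growth factor beta, fell by 0.43 in *WT* (adjusted p = 0.0131) and rose by 0.58 in *Pear1*-/- (adjusted p = 0.000614), with an interaction of 1.01 (adjusted p = 0.000412). As for *Bgn*, the responses of *Tsku* were in opposite directions. *Podnl1* rose by 1.22 in *Pear1*-/- (adjusted p = 0.00196) and had 0.46 in *WT* (adjusted p = 0.237), but the interaction of 0.76 did not pass (adjusted p = 0.209).

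The remaining SLRP genes were at low levels. *Epyc*, in the cluster of *Dcn* and *Lum*, had 32.5 ± 6.54 and 5.23 ± 2.07 normalized counts in *WT* vehicle and bleo, and in *Pear1*-/- 28.8 ± 9.20 in vehicle with a single count in 1 of the 3 bleo libraries. It fell in both (adjusted p = 3.17e-05 and 2.49e-07). *Chadl* fell in *WT* from 23.0 ± 10.3 to 1.70 ± 1.56 (adjusted p = 3.24e-05), with only 0, 3 and 2 counts in the bleo libraries. In *Pear1*-/- it had 16.6 ± 3.81 and 8.65 ± 0.936 (-0.91, adjusted p = 0.0967), and the interaction was 2.77 (adjusted p = 0.0115). *Chad* fell in *WT* from 25.4 ± 5.27 to 11.03 ± 2.84 (adjusted p = 0.0292). It fell in *Pear1*-/- from 19.9 ± 4.27 to 3.98 ± 3.45 (adjusted p = 0.00111), with 7, 0 and 6 counts in the bleo libraries. *Kera*, *Optc* and *Nyx* did not pass the filter and had at most 11 counts in any library.

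Genes for the enzymes that build the sugar chains were followed in lists. Of 7 genes for the linker sugars, 3 rose and 1 fell in *WT* with bleo, 2 rose and 2 fell in *Pear1*-/-, and 0 were called with the fold of 2 as well. Of all genes tested, 31.4% rose and 36.5% fell in *WT*, with 10.5% and 23.3% called. The shares in *Pear1*-/- were 29.1% and 33.1%, with 8.37% and 19.3% called. *Xylt1*, a xylosyltransferase that starts the chain, was 1.41 lower on the log2 scale in *Pear1*-/- bleo than in *WT* bleo (55.3 ± 11.3 against 146.4 ± 13.8 normalized counts, adjusted p = 2.75e-07). *Pxylp1*, which removes a phosphate from the linker, was 1.23 higher (175.1 ± 9.40 against 74.2 ± 3.15, adjusted p = 7.04e-08).

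Of 16 chondroitin and dermatan sulphate genes, 2 rose and 10 fell in *WT* with bleo, while 8 rose and 5 fell in *Pear1*-/-. Over all genes tested these shares were 31.4% and 36.5% in *WT* and 29.1% and 33.1% in *Pear1*-/-. *Dsel* and *Ust*, which make and sulphate iduronate in dermatan sulphate, fell in *WT* (-0.92 and -0.90, adjusted p = 8.48e-07 and 8.51e-08) and in *Pear1*-/- (-0.72 and -0.49, adjusted p = 1.25e-05 and 0.00013). The chain polymerase gene *Chsy1* rose by 0.96 in *WT* (adjusted p = 5.28e-05) and by 1.40 in *Pear1*-/- (adjusted p = 1.25e-06), with an interaction of 0.44 (adjusted p = 0.169). *Chsy3* rose by 1.78 in *Pear1*-/-, from 69.1 ± 8.83 to 237.3 ± 2.57 normalized counts (adjusted p = 1.29e-08), and had 0.06 in *WT* (adjusted p = 0.75), with an interaction of 1.72 (adjusted p = 9.73e-06). *Pear1*-/- was 0.62 lower in vehicle (adjusted p = 0.0408) and 1.09 higher in bleo (adjusted p = 5.89e-06) than *WT*. The *WT* vehicle libraries had 135.8, 78.1 and 107.6, of which replicate 2 lay in the range of *Pear1*-/- vehicle. Between the bleo groups 12 of the 16 were higher in *Pear1*-/- and 1 lower (all genes, 22.1% and 24.0%). The sulphotransferase *Chst15* had 567.5 ± 23.7 against 237.7 ± 8.85 normalized counts (1.24, adjusted p = 3.6e-10).

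Among 7 keratan sulphate genes, of which 6 were tested, *B3gnt7*, a chain-extending enzyme, rose by 1.35 in *WT* (adjusted p = 6.45e-07) and by 0.52 in *Pear1*-/- (adjusted p = 0.00822). The sulphotransferase *Chst1* fell by 1.01 in *Pear1*-/- (adjusted p = 0.00357). In the 6 genes of sulphate supply, *Papss2*, which makes the sulphate donor, fell by 1.60 in *WT* (adjusted p = 3.73e-12) and by 0.77 in *Pear1*-/- (adjusted p = 1.29e-07). *Tpst1*, which sulphates tyrosines, a modification that fibromodulin and osteomodulin carry, fell by 1.05 in *WT* (adjusted p = 1.1e-10) and by 0.58 in *Pear1*-/- (adjusted p = 4.51e-07).

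SLRPs act on fibrillar collagens and the collagens that bind them. Of 10 such genes tested, 4 rose and 5 fell in *WT* with bleo, with 0 called higher and 2 lower (all genes, 10.5% and 23.3% called; 31.4% and 36.5% rose and fell). With the *Pear1*-/- label 7 rose and 1 fell, with 6 called higher and 1 lower (all genes, 8.37% and 19.3% called; 29.1% and 33.1% rose and fell). *Col1a1* reached 142200 ± 3130 normalized counts in *Pear1*-/- bleo against 42470 ± 36.2 in *WT* bleo (log2 fold change 1.73, adjusted p = 4.15e-14), and 9 of the 10 were called higher between the bleo groups (all genes, 6.22%), where *Bgn* had 0.77 and *Fmod* 1.80. *Col14a1*, a fibril-associated collagen, fell by 2.13 in *Pear1*-/- (adjusted p = 6.57e-14) and was the gene lower between the bleo groups (-1.08, adjusted p = 2.55e-09). In *WT* it was lower with bleo as well, at 2454 ± 292 normalized counts in vehicle and 1314 ± 51.4 in bleo. *Col6a1* and *Col6a2*, whose microfibrils bind decorin and biglycan, fell in *WT* by 1.28 and 1.13 (adjusted p = 2.72e-11 and 7.92e-11). In *Pear1*-/- their levels stayed close: 10160 ± 911 and 9949 ± 321 normalized counts in vehicle and bleo for *Col6a1*, and 9253 ± 928 and 9457 ± 78.8 for *Col6a2*.

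Proteases that process or cleave SLRPs were followed as 9 genes, of which 8 were tested. *Bmp1*, which trims the propeptides of biglycan and of procollagen, rose by 1.01 in *Pear1*-/- (adjusted p = 3.64e-09) and was 0.98 higher there than in *WT* bleo (1151 ± 27.5 against 579.3 ± 32.6 normalized counts, adjusted p = 1.14e-08). *Mmp14*, which can cleave lumican, rose in *WT* (0.76, adjusted p = 9.28e-09) and in *Pear1*-/- (1.52, adjusted p = 6.15e-13). *Mmp3* fell in both (-1.61 and -1.78, adjusted p = 6.31e-12 and 2.21e-12), as did the aggrecanase *Adamts5* (-1.42 and -0.97, adjusted p = 1.22e-08 and 1.05e-06). *Mmp13* rose by 1.49 in *WT* (adjusted p = 1.03e-10) and was 1.40 lower in *Pear1*-/- bleo than in *WT* bleo (-1.40, adjusted p = 5.86e-10).

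Of 10 genes for signalling partners, *Tlr2*, a receptor for soluble biglycan that leukocytes also express, rose by 1.76 in *WT* (adjusted p = 8.34e-13) and by 1.05 in *Pear1*-/- (adjusted p = 2.37e-09). *Egfr*, which decorin binds, fell by 1.39 in *WT* and by 1.32 in *Pear1*-/- (adjusted p = 1.56e-08 and 2.59e-08). *Tgfb1* rose by 0.82 in *WT* (adjusted p = 4.59e-07) and *Tgfb3* fell by 1.31 (adjusted p = 3.8e-12). Between the bleo groups *Tgfb2* was 1.11 higher and *Tgfb1* 0.46 lower in *Pear1*-/- (1.11 and -0.46, adjusted p = 5.27e-08 and 0.000502). *Wisp1* (Ccn4), a matricellular protein that binds decorin and biglycan, rose by 1.58 in *Pear1*-/- (adjusted p = 1.41e-09). It had 763.9 ± 13.6 normalized counts in *Pear1*-/- bleo and 289.3 ± 35.4 in *WT* bleo.

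The members were set beside each other and beside 10446 other well-measured genes by the root mean square (RMS) difference of their log2 counts scaled to library size, each gene centred on its own mean over the 12 libraries. *Lum* and *Aspn*, on different chromosomes, were the closest pair of members (0.137), followed by *Ogn* and *Prelp* (0.235). Neighbours on a chromosome were farther apart than both of these pairs: 0.453 for *Dcn* and *Lum*, 0.69 for *Omd* and *Ogn*, 0.986 for *Aspn* and *Omd*, and 2.45 for *Prelp* and *Fmod*. Pairs of members on different chromosomes spanned 0.137 (*Lum* and *Aspn*) to 3.16 (*Fmod* and *Omd*). *Fmod* was the farthest from each of the other members (1.67 to 3.16). The genes nearest to *Fmod* were *Saa3* (0.239), an acute-phase serum amyloid gene, *Fst* (0.289), the activin inhibitor follistatin, and *Nrep* (0.305).

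For *Dcn* the nearest were *Entpd2* (0.109), *C3* (0.11) and *Tnfaip6* (0.174), and for *Lum* *Il33* (0.0892), *Frmd6* (0.0939) and *Ankrd33b* (0.0967). *Bgn* was nearest to *Dpysl3* (0.067), *Sec61a1* (0.0694) and *Bace1* (0.0699). *Ogn* lay near *Fmo1* (0.111), *Vldlr* (0.139) and *Aldh1a1* (0.139), and *Prelp* near *Lynx1* (0.0878), *Lrp4* (0.102) and *Fbln5* (0.103), the last an elastic-fibre gene. *Aspn* was nearest to *Slfn4* (0.118), *Tsc22d3* (0.129) and *Trp53inp1* (0.143), and *Omd* to *C230085N15Rik* (0.243), *Lamc3* (0.252) and *Sec14l3* (0.259). The points share libraries, and these distances are a description of 12 libraries in 4 groups.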

How the data were processed

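RNA from sorted Pdgfra+ lung cells was amplified to full-length cDNA (SMART-Seq v4), and the authors aligned the reads to GRCm38 (mm10) with HISAT2. The deposited counts are whole reads per gene, without normalization; the program that counted them and whether it used strand are not given in the sources used here. The deposited normalized values (a signal per gene) equal the counts divided by DESeq2 size factors, within a relative difference of 1.09e-10. Libraries were grouped by their labelled genotype and treatment.

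Counts were tested with edgeR 4.0.16 (R 4.3.3; TMM normalization, its filter on low counts, quasi-likelihood test with robust estimation, two-sided, Benjamini-Hochberg over 17418 genes) in 1 fit of 12 libraries. Where the study's methods used limma on normalized values, the count test replaced it. TPM used exonic lengths of GENCODE M21, found for 99.1% of genes, and RefSeq promoter windows were found for 6 of the 8 genes. A count of 3 or fewer was taken as the detection floor, 0.287 to 0.448 CPM over the libraries, which covers counting error only. Alternatives were DESeq2 1.42.0, limma 3.58.1 with a pseudocount of 1, DESeq2 size factors, no filter, a replicate block, only the groups compared, no robust estimation and leaving out each library. Robust estimation in the main test, and its omission as an alternative, were chosen after seeing the data. The edgeR, DESeq2 and limma scripts were tested on simulated data.

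The 8 genes, the pathway and marker lists and the tests were chosen with earlier results of these data known. Genes named are the 8 members, Pear1, the other SLRP genes, the first gene of each marker list, genes from among the 2 largest rises and falls of each pathway list in each comparison, and the 3 genes nearest each member. Acta2, Cdh1 and Cenpp fall outside this rule and were named after their values were seen.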

Additional observations from a re-analysis of the deposited data

Results flagged for a closer look

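The response of *Fmod* to bleo differed between the genotypes by the test of the difference itself: the interaction on the log2 scale was 2 (standard error 0.167, adjusted p = 7.74e-08 by edgeR), from log2 fold changes of 2.33 (*WT*) and 4.33 (labelled *Pear1*-/-). All 3 *Pear1*-/- bleo libraries (4457, 4640 and 4641 normalized counts) were above all 3 *WT* bleo libraries (1269, 1308 and 1325). Over 18 other settings the interaction was between 1.87 and 2.17.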

How the results depend on the processing

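Over 19 other settings, 695 of 752 values of the 8 genes kept their direction and side of the threshold, 42 lost significance, 8 gained it and 7 changed sign. Of 752 counts of genes called in the pathway lists, 727 were equal or close to the main count, 10 were lower and 15 higher. Counts of pathway and marker genes at an adjusted p alone were not read in these settings. The counts of SLRP genes called by edgeR were unchanged under DESeq2, limma, DESeq2 size factors, no filter, no robust estimation and only the 2 groups compared. When each library was left out in turn, 0 to 2 genes were called between the vehicle groups (2, *Dcn* and *Lum*, without *WT* vehicle replicate 2) and 1 to 2 for the interaction (2, with *Omd*, without *Pear1*-/- bleo replicate 2 or 3). The bleo response of *WT* gave 6 to 7.

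Signs changed only for values that did not pass the test. *Bgn* between the vehicle groups was 0.061 without a filter. The interaction of *Lum* was 0.00509 with DESeq2 and 0.00554 with DESeq2 size factors, and between -0.39 and 0.169 with 1 library left out. That of *Aspn* was between -0.0592 (without *WT* vehicle replicate 2) and 0.482. The interaction of *Ogn* missed it with limma (adjusted p = 0.0923) and without a filter (adjusted p = 0.126), and that of *Omd* with limma (adjusted p = 0.0568). Why these changed was not tested.

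With the replicate number as a block, 7, 7, 1, 0 and 1 SLRP genes were called in the 2 bleo responses, the bleo and vehicle genotype comparisons and the interaction, as without the block. The block changed the call of 1 of 40 member values, *Prelp* between the vehicle groups (adjusted p = 0.0544). Same-numbered libraries did not deviate together (correlations -0.161 to 0.0997 over 18 pairs), so the numbers were not taken as pairs.

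Over all genes, 13891 in place of 5886 were called in *WT* bleo without a filter and 8045 in place of 4825 in *Pear1*-/- bleo. Between the vehicle groups 578 were called, but 2919 without a filter, 28 with limma, 0 with only these groups in the fit, 2455 without *WT* vehicle replicate 2, 0 without any other vehicle library and 183 to 272 without a bleo library. After bleo *Omd* had 13.3 to 35.8 normalized counts in a library, against a floor of 3 counts.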
